A study of Oryza sativa with 9 samples.

Results

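The genes described here were those whose leaf transcript level was at least 2 times higher in both lines of a rice double mutant than in wild type (WT), among genes listed above 0 in at least 1 WT library. The members were chosen by their TPM values (a length-scaled relative abundance, with the same total in every library). They had to average 1 TPM or more over the 9 libraries, with a TPM above 0 in at least 1 WT library, and a lowest mutant value at least 2 times the highest WT value. This rule chose 202 genes of the 55986 identifiers in the deposited table. The minimum of 1 TPM left 19345 genes, called the tested genes below, and all 202 members are among them by the rule.

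RNA was sequenced from leaves of field-grown rice at an age of 40 days, with 3 libraries in each of 3 groups. The mutant genotype is labelled osatxr5c;osatxr6kd, and its lines are osatxr5c;osatxr6kd-2 (line 2) and osatxr5c;osatxr6kd-1 (line 1). The WT libraries are titled NP. The labels do not explain the suffixes c and kd or say how the lines were made, and they do not say whether a library came from 1 plant or a pool, so the p-values below measure only the spread between these libraries. The design text of the series speaks of a null double mutant of the same genes and states that they are required for reproduction, and the labels of the leaf libraries do not use the word null.

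ATXR5 and ATXR6 are plant histone methyltransferases. In Arabidopsis they place a single methyl group on lysine 27 of the replication-dependent histone H3.1, and their loss is known there for the release of silenced transposable elements and for extra copying of heterochromatic DNA. OsATXR5 and OsATXR6 are the rice counterparts. Genes listed at 0 in all 3 WT libraries are outside the rule, but members can be near 0 in WT: 50 of the 202 had a WT mean under 1 TPM.

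The identifiers are of the LOC_Os kind, in which the digits after Os give the chromosome and the last 5 digits give the order along it. None of the 55986 identifiers matched the 39387 rice gene records used for names, so no symbol or product is given for any member, and the levels of OsATXR5 and OsATXR6 and of leaf marker genes were not analysed here. Every column summed to 1000000 TPM, and between 21798 and 22621 genes per library were listed above 0. TPM keeps no depth, so the depth behind each value is unknown. The lowest values above 0 lay between 0.303 and 0.327 TPM per library.

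The members made up 1.04% of the tested genes. The mirrored rule, with the highest mutant value at most 1 / 2 of the lowest WT value, was met by 7 genes, or 0.0362%. These counts are not fully alike, because the minimum of 1 TPM is a mean over 6 mutant and 3 WT libraries. It admits low genes raised in the mutants more readily than low genes reduced in them. In 1762 tested genes (9.11%) all 6 mutant libraries lay above all 3 WT libraries, so the members are those of them in which the gap reached a factor of 2 and WT was above 0. Because these values chose the members, the differences from WT are given as a description with no test. In leaf tissue as a whole, a larger share of a cell type and more RNA per cell cannot be told apart.

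The members together took a small share of each library. Their TPM summed to 10664, 10599 and 10348 in line 2, to 12196, 11675 and 12040 in line 1, and to 2764, 2607 and 2602 in WT. As a share of a library this was 1.03% to 1.07% in line 2, 1.17% to 1.22% in line 1 and 0.26% to 0.276% in WT. The 3 groups did not overlap in this sum, with line 1 above line 2 and both far above WT. The median TPM over the members had the lines in the other order. It was 20.9, 21.1 and 20.4 in line 2 libraries, 16.7, 17.2 and 16.4 in line 1 libraries and 3.48, 3.49 and 3.41 in WT libraries. The 10 members with the highest mutant mean, of 202, held 29.7% of the sum in line 2, 35.9% in line 1 and 33.1% in WT.

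The margin is used below for the lowest of the 6 mutant values divided by the highest of the 3 WT values. Its median over the members was 2.77, and it ran from 2 to 23.8. It was under 3 in 111 members, at least 3 in 91, at least 5 in 32 and at least 10 in 5. In terms of group means, the median ratio to WT was 4.32 in line 2 and 4.38 in line 1. In 85 members both lines had at least 4 times the WT mean, and in 26 members at least 8 times.

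LOC_Os07g10850, on chromosome 7, had the largest margin, 23.8. It measured 10.6, 10.2 and 10.9 TPM in line 2 libraries, 9.89, 10.5 and 10.2 TPM in line 1 libraries and 0, 0 and 0.416 TPM in WT libraries. The mutant libraries were close together, while WT was listed at 0 in 2 libraries and lay near the lowest values above 0 in the other, so the ratio to WT is poorly fixed.

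LOC_Os04g23550, on chromosome 4, had nearly the same margin, 23.6, from a WT level that was above 0 in every library. It measured 105, 112 and 98.8 TPM in line 2 libraries, 96.4, 85.0 and 92.6 TPM in line 1 libraries and 2.01, 3.61 and 1.78 TPM in WT libraries. The mean was 105 ± 6.84 TPM in line 2, 91.3 ± 5.83 TPM in line 1 and 2.47 ± 0.996 TPM in WT (SD, n = 3 each). That is 42.7 times the WT mean in line 2 and 37.0 times in line 1.

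The other 3 members with a margin of at least 10 were picked for naming after their values were seen. LOC_Os11g05380 measured 44.5, 42.3 and 41.4 TPM in line 2 libraries, 17.4, 19.6 and 17.4 TPM in line 1 libraries and 0.887, 0.583 and 0 TPM in WT libraries. LOC_Os08g36920 measured 56.9, 53.8 and 45.9 TPM in line 2 libraries, 42.9, 39.4 and 47.7 TPM in line 1 libraries and 2.46, 1.24 and 1.62 TPM in WT libraries. LOC_Os04g57350 measured 7.37, 6.57 and 6.31 TPM in line 2 libraries and 7.42, 6.27 and 6.61 TPM in line 1 libraries, with 0.531 TPM in 1 WT library and 0 in the other two. The first of these separated the lines completely, and in the other two the lines overlapped.

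The members with the highest mean over the mutant libraries were already well expressed in WT. LOC_Os03g28940 measured 600.5, 626 and 608 TPM in line 2 libraries, 538, 498 and 537 TPM in line 1 libraries and 141, 159 and 146 TPM in WT libraries. LOC_Os04g41960 measured 509, 493 and 469 TPM in line 2 libraries, 585, 494 and 544 TPM in line 1 libraries and 145, 122 and 124 TPM in WT libraries. The ratio of means to WT was 4.11 in line 2 and 3.53 in line 1 for LOC_Os03g28940, and 3.76 in line 2 and 4.15 in line 1 for LOC_Os04g41960. The margins of both, 3.13 and 3.24, lay above the median of 2.77.

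**Figure D1:**
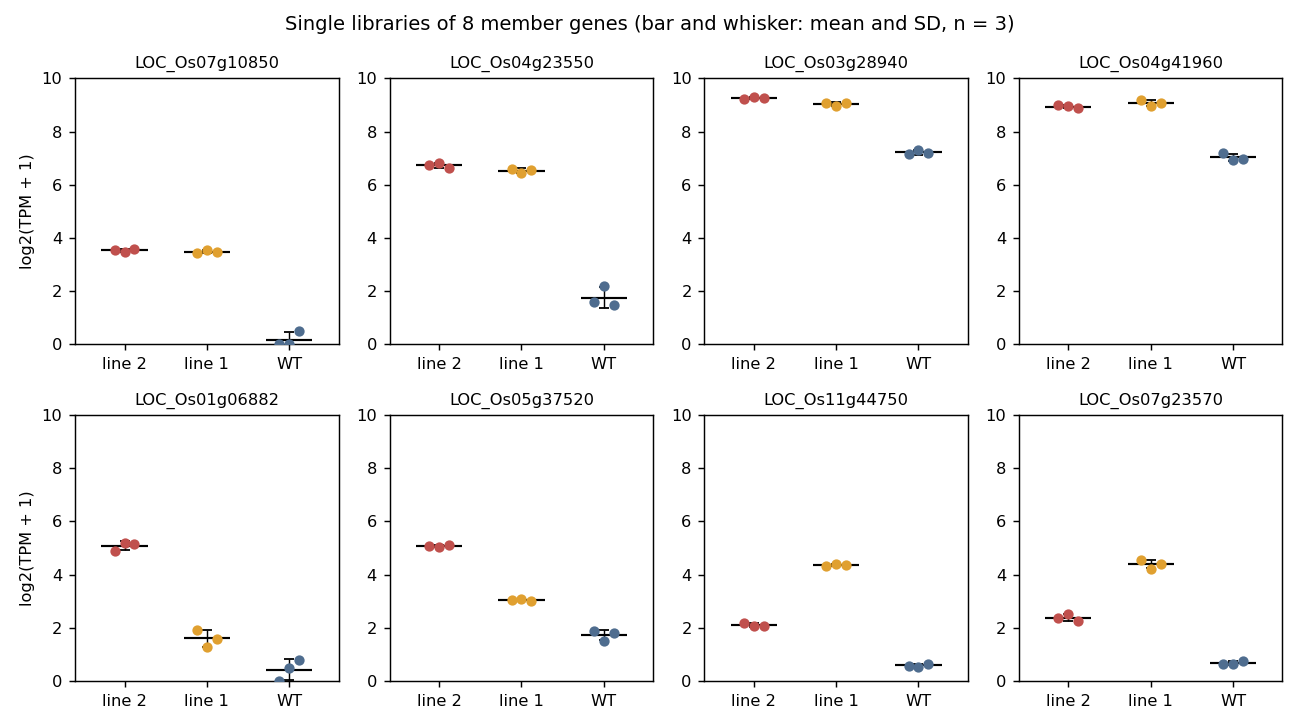
Level of 8 members on the log2(TPM + 1) scale in each library, with line 2, line 1 and WT from left to right in each panel; points are libraries, and the bar and whisker are the mean and SD of 3. The upper row shows the 2 largest margins and the 2 highest mutant levels, where the lines lie close together, and the lower row the 4 members with the largest called differences between the lines, such as LOC_Os01g06882 at 28.8 to 35.7 TPM in line 2 and 1.45 to 2.81 TPM in line 1.

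At the edge of the rule, the last members inside were LOC_Os01g54560, with a margin of 2.01, and LOC_Os01g72000, with a margin of 2. LOC_Os01g54560 measured 73.9, 75.2 and 76.2 TPM in line 2 libraries, 109, 109.9 and 115 TPM in line 1 libraries and 32.0, 35.6 and 36.8 TPM in WT libraries. LOC_Os01g72000 measured 21.8, 24.3 and 23.7 TPM in line 2 libraries, 12.3, 12.8 and 12.6 TPM in line 1 libraries and 6.16, 5.41 and 4.58 TPM in WT libraries. In each of them 1 line was well clear of the threshold and the other line decided the margin.

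The first genes outside, with every other part of the rule met, had margins of 1.996 and 1.992. LOC_Os10g32760 measured 1.45, 1.22 and 1.10 TPM in line 2 libraries, 1.49, 1.51 and 1.71 TPM in line 1 libraries and 0.549, 0.466 and 0.504 TPM in WT libraries. LOC_Os05g48340 measured 24.0, 23.3 and 26.3 TPM in line 2 libraries, 23.2, 22.3 and 21.1 TPM in line 1 libraries and 9.33, 10.6 and 10.5 TPM in WT libraries. A further 213 genes met the rule at 1.5 times but not at 2 times, so the list has no natural edge.

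The WT level of the members was lower than that of the tested genes, with a median of 3.36 TPM against 13.2 TPM. Over all 9 libraries the medians were 13.5 TPM for the members and 13.3 TPM for the tested genes. In 50 members (24.8%) the WT mean was under 1 TPM, where 2.48% of the tested genes lay. These 50 passed the minimum of 1 TPM only through the mutant libraries, so that their place in the list was set by the filter and the rule together. A further 90 members (44.6%) had a WT mean from 1 to 10 TPM, and 62 (30.7%) had 10 TPM or more. Among the 62, the median ratio to WT was 3.39 in line 2 and 3.81 in line 1, and among the 50 it was 7.19 and 6.98.

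In 23 members at least 1 WT library was listed at 0, with 8 of them at 0 in 2 WT libraries. By the rule no member could be listed at 0 in a mutant library. WT values of these 23 members reached at most 1.17 TPM, and their mutant values lay between 0.782 and 44.5 TPM. The ratios of these members rest on values at the low end of what the table holds.

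Spread between libraries was small in the mutants. The median coefficient of variation of the members, the SD as a percent of the mean of 3 libraries, was 5.55% in line 2, 7.59% in line 1 and 13.2% in WT. Over the tested genes it was 6.59%, 8.53% and 8.88%. The rule takes the lowest mutant and the highest WT value of these same libraries, so it favours genes with little spread. By the rule the members were also high in the mutants and low in WT. The parts of the rule and of the level in the spread were not tested. WT replicate 1 was the highest WT library in 47.5% of the members, against 30.1% of the tested genes, and WT replicates 2 and 3 were so in 26.2% each. Without it the rule chose 246 genes, 201 of them among the 202.

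**Figure D2:**
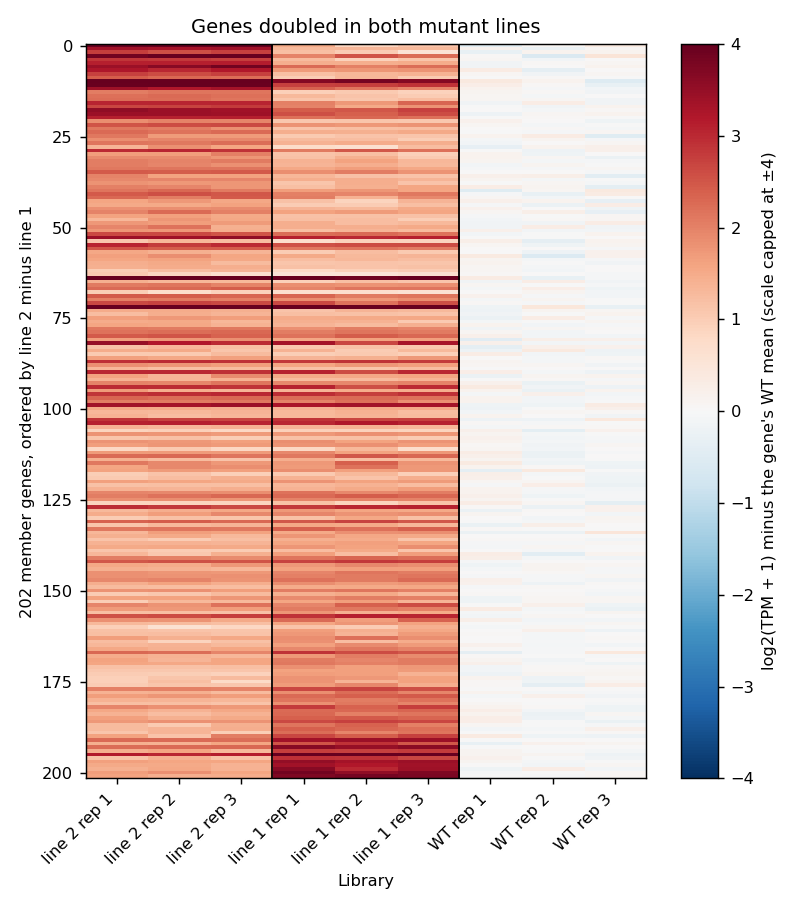
Heat map of the 202 members in the 9 libraries, with line 2, line 1 and WT from left to right; colour is log2(TPM + 1) minus the gene's WT mean, and rows run from the largest positive to the largest negative difference of line 2 minus line 1. Every member was above WT in all 6 mutant libraries by the rule, and the top and bottom rows show members much higher in one line than in the other.

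The rule sets each line against WT but does not set the lines against each other, so the contrast of line 2 with line 1 was tested. The calls are still not free of the rule, which favours genes with little spread, because that spread enters the variance behind the calls. It was fitted with limma on log2(TPM + 1) over all tested genes, with Benjamini-Hochberg adjustment and a threshold of 0.05. The members often differed between the lines: 108 of 202 (53.5%) passed, 55 higher and 53 lower in line 2. Of all tested genes 22% passed, 15.2% higher and 6.8% lower in line 2. The direction over all tested genes depended on the scaling, with 69.1% of the calls higher in line 2 as deposited, 49.9% after median-ratio scaling and 56.1% after quantile normalization. Among the called members these shares were 50.9%, 42.6% and 44%. The counts describe the list, and no test of the list against other genes was made.

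The sizes of the differences were set side by side in the same way. The median absolute difference between the lines was 0.36 on the log2 scale over the members and 0.15 over the tested genes, and the median signed difference was 0.02 and 0.07. Among the called members the median absolute difference was 0.67. All 3 libraries of line 2 lay beyond all 3 of line 1 in 142 members (70.3%), above them in 76 and below them in 66, while this held in 38.9% of the tested genes. The line means differed by at least 2 times in 34 members (16.8%), against 3.69% of the tested genes. In 72 members (35.6%) the line means were within 1.2 times of each other, against 66.9% of the tested genes.

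The 94 members that did not pass had differences between -0.50 and 0.53, with a median standard error over all members of 0.11. A p above the threshold does not show that the lines were equal in these genes. The median ratio to WT was 4.19 in line 2 and 4.55 in line 1 for these 94 members. For the 55 members higher in line 2 the median ratios were 6.00 in line 2 and 3.38 in line 1, and for the 53 lower in line 2 they were 3.12 and 4.88. As deposited, line 2 was farther from WT in 103 members and line 1 in 99. After median-ratio scaling 46 of the called members were higher and 62 lower in line 2, while quantile normalization gave 48 higher and 61 lower.

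**Figure D3:**
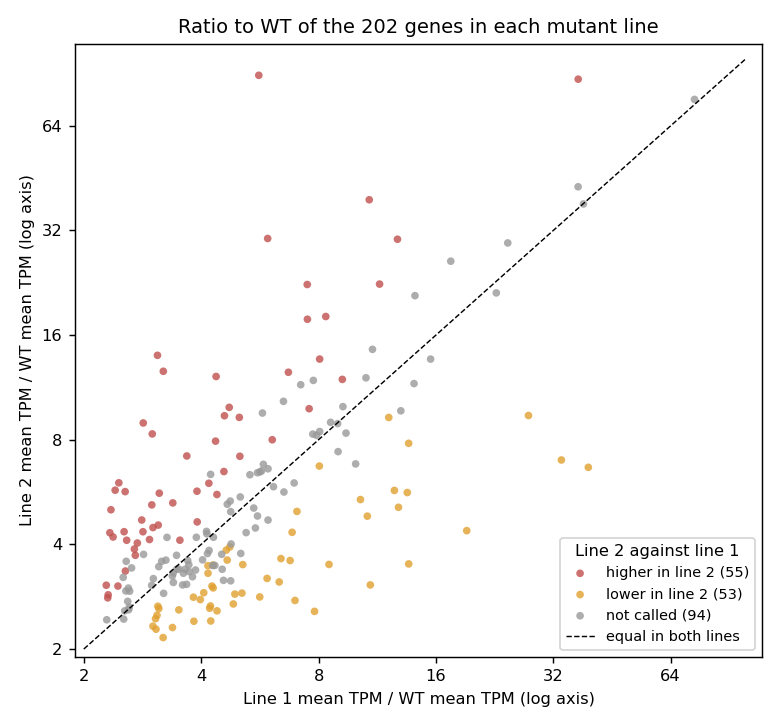
Ratio of the mean TPM of line 2 (vertical, log axis) and of line 1 (horizontal, log axis) to the WT mean for the 202 members; each point is a gene, coloured by the limma call of line 2 against line 1, and the dashed line marks equal ratios. The 55 genes higher in line 2 lie above the dashed line and the 53 lower in line 2 below it, with the 94 genes not called around it.

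The largest difference in favour of line 2 was that of LOC_Os01g06882. It measured 28.8, 35.7 and 34.8 TPM in line 2 libraries, 2.81, 1.45 and 1.98 TPM in line 1 libraries and 0, 0.4 and 0.71 TPM in WT libraries. Line 2 exceeded line 1 by 3.49 ± 0.19 log2(TPM + 1) units (SE; limma adjusted p = 1.1e-08). Line 1 lay nearer to WT than to line 2. The lines did not overlap in this gene, which was named for its difference between them, and both lay above WT by the rule.

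LOC_Os05g37520 came next and measured 32.9, 31.8 and 33.3 TPM in line 2 libraries, 7.15, 7.39 and 7.11 TPM in line 1 libraries and 2.66, 1.85 and 2.50 TPM in WT libraries. Its difference between the lines was 2.04 ± 0.10 (SE; limma adjusted p = 3.9e-09). The 3 groups formed 3 separate steps with little spread within each. Both lines lay above WT by the rule, and the gene was named for its difference between the lines.

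In the other direction LOC_Os11g44750 measured 3.59, 3.14 and 3.20 TPM in line 2 libraries, 19.0, 20.2 and 19.4 TPM in line 1 libraries and 0.485, 0.436 and 0.569 TPM in WT libraries. The difference of line 2 minus line 1 was -2.25 ± 0.11 (SE; limma adjusted p = 2e-09). LOC_Os07g23570 followed and measured 4.13, 4.71 and 3.80 TPM in line 2 libraries, 22.5, 17.7 and 20.4 TPM in line 1 libraries and 0.548, 0.571 and 0.686 TPM in WT libraries. Its difference was -2.02 ± 0.12 (SE; limma adjusted p = 1.9e-08). Both genes were below 1 TPM in every WT library and were several times higher in line 1 than in line 2.

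Among the members named for margin or level, the lines mostly lay close together. LOC_Os07g10850 differed by 0.04 ± 0.14 (SE; limma adjusted p = 0.86) and LOC_Os04g41960 by -0.14 ± 0.07 (SE; limma adjusted p = 0.21). LOC_Os04g23550 differed by 0.20 ± 0.14 (SE; limma adjusted p = 0.35), and it passed with an adjusted p of 0.041 when the fit held the mutant lines only. LOC_Os03g28940 was higher in line 2 by 0.22 ± 0.05 (SE; limma adjusted p = 0.0094), a call that was lost with a constant prior variance (adjusted p = 0.053), with median-ratio scaling (0.076) and without line 2 replicate 2 (0.052).

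LOC_Os11g05380 was higher in line 2 by 1.19 ± 0.17 (SE; limma adjusted p = 0.00015), but with a pseudocount of 0.1 the adjusted p was 0.16. LOC_Os08g36920 differed by 0.26 ± 0.14 (SE; limma adjusted p = 0.2) and LOC_Os04g57350 by 0.00 ± 0.16 (SE; limma adjusted p = 0.99). The edge genes also differed: LOC_Os01g72000 was higher in line 2 by 0.84 ± 0.10 (SE; limma adjusted p = 2.1e-05) and LOC_Os01g54560 lower by a difference of -0.56 ± 0.06 (SE; limma adjusted p = 1.1e-05).

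The members with the highest mean in line 1, picked after their values were seen, were much less abundant in line 2. LOC_Os02g03280 measured 226, 214 and 218 TPM in line 2 libraries, 835, 723 and 781 TPM in line 1 libraries and 77.2, 67.2 and 70.9 TPM in WT libraries. LOC_Os07g36170 measured 314, 312 and 305 TPM in line 2 libraries, 670.4, 693 and 695 TPM in line 1 libraries and 63.2, 64.4 and 65.5 TPM in WT libraries. The differences of line 2 minus line 1 were -1.82 ± 0.06 for LOC_Os02g03280 and -1.14 ± 0.05 for LOC_Os07g36170 (SE), with limma adjusted p-values of 9.9e-11 and 3.9e-10. These 2 genes contributed to the higher sum of the members in line 1.

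The share of members that differed between the lines was 30% of the 50 members with a WT mean under 1 TPM, 63.3% of the 90 members from 1 to 10 TPM and 58.1% of the 62 members at 10 TPM or more. The tested genes of the same WT levels passed in 35.4%, 17.2% and 24.9%. The share of the members thus lay below that of the tested genes in the lowest class and above it in the other two, and these differences were not tested. Tested genes with a WT mean under 1 TPM reached the minimum only through at least 1 mutant line. Members had to be above WT in both lines, so the shares in the lowest class do not compare like genes. The higher classes match the WT level only, while the contrast uses the mutant values. Members from 1 to 10 TPM had median ratios to WT of 4.35 in line 2 and 4.23 in line 1. At 10 TPM or more these ratios were 3.39 and 3.81, so the shares there are not matched on mutant level either.

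**Figure D4:**
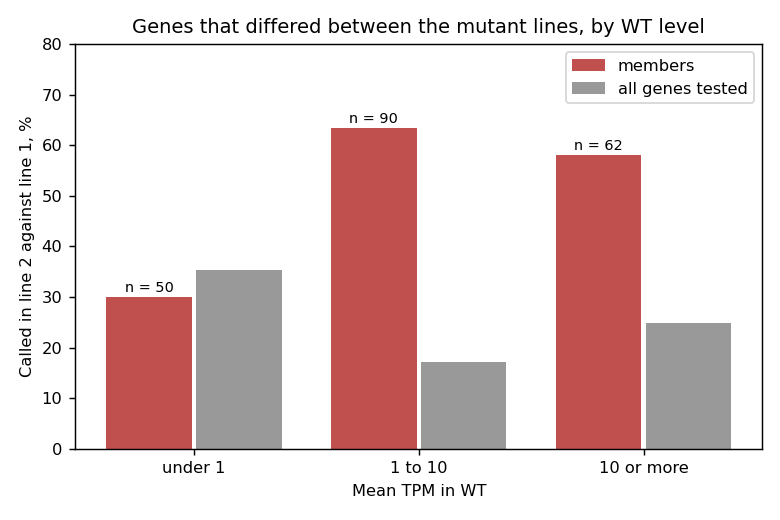
Percent of genes called in line 2 against line 1 (limma adjusted p under 0.05) among the members and among all tested genes, in 3 classes of mean WT TPM; the number of members stands above their bars. The members lie at 30% under 1 TPM, where the tested genes reach 35.4%, and at 63.3% and 58.1% in the 2 higher classes, against 17.2% and 24.9%. The classes match the WT level only, and the members are higher in the mutants by the rule.

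Position was not used by the rule. The members were spread over all 12 chromosomes, with 43 on chromosome 1, 37 on chromosome 2, 22 on chromosome 3, 17 on chromosome 4 and 16 on chromosome 11. Chromosomes 1 and 2 held 39.6% of the members and 26.2% of the tested genes. As a share of the tested genes, members ranged from 0.563% on chromosome 12 to 1.59% on chromosome 2, with 1.57% on chromosome 1 and 1.52% on chromosome 11. These shares are a description, and no test was made of them.

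**Figure D5:**
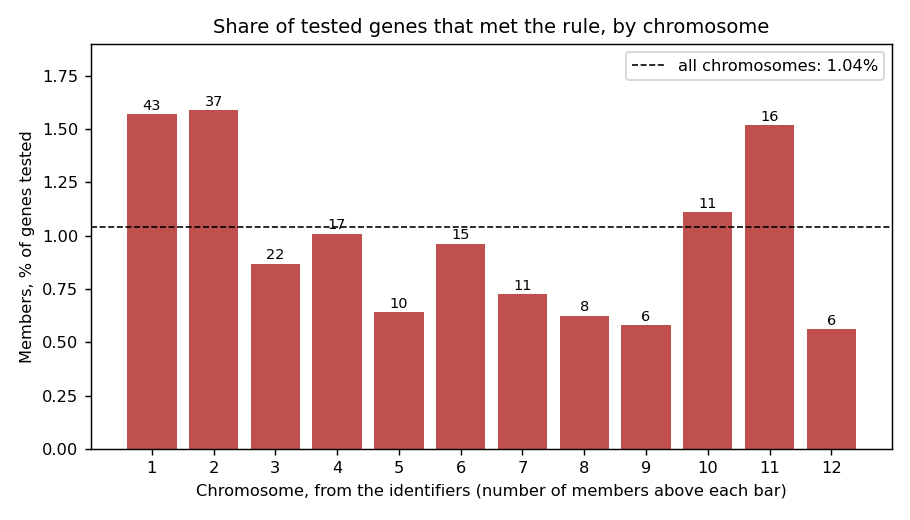
Members as a percent of the tested genes of each chromosome, with the number of members above each bar; the dashed line is the share over all chromosomes, 1.04%. Chromosomes 1, 2 and 11 lie above 1.5%, and chromosome 12 is lowest at 0.563%.

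Some members stood next to each other in identifier order among the tested genes. This held for 32 members (15.8%), in 13 pairs and 2 runs of 3, and the other 170 stood alone. Of the 401 tested genes directly beside a member, 7.98% were members themselves, against 1.04% of all tested genes. Neighbours that can share reads, as copies or overlapping genes, are not independent, and how the authors counted such reads is not given in the sources used here.

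Beside the members stood 369 neighbours that were not members. In 42 of them (11.4%) both lines were higher than WT at a limma adjusted p under 0.05, against 5.27% of the 19143 non-members and 6.26% of all tested genes. The median difference from WT of these neighbours was 0.03 in line 2 and 0.00 in line 1 on the log2 scale, and that of all non-members was 0.00 and -0.06. The share called higher in both lines was thus larger beside members than among all non-members, while the medians lay near 0, and the difference was not tested.

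The first run of 3 lies on chromosome 2. LOC_Os02g35329 measured 93.9, 92.5 and 87.2 TPM in line 2 libraries, 98.2, 70.0 and 92.6 TPM in line 1 libraries and 13.2, 9.98 and 9.24 TPM in WT libraries. LOC_Os02g35347 measured 176, 143 and 124 TPM in line 2 libraries, 159, 99.3 and 153 TPM in line 1 libraries and 17.2, 13.7 and 13.6 TPM in WT libraries. LOC_Os02g35365 measured 92.2, 92.4 and 85.5 TPM in line 2 libraries, 97.4, 69.9 and 92.0 TPM in line 1 libraries and 14.0, 9.71 and 9.09 TPM in WT libraries. The outer genes had nearly the same value in each of the 9 libraries, and all 3 genes shared a low value in line 1 replicate 2. Whether these genes share reads was not tested, so they may not be 3 separate measurements.

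The second run of 3 lies on chromosome 11 and was lower in level. LOC_Os11g31430 measured 16.3, 15.9 and 16.6 TPM in line 2 libraries, 13.4, 15.6 and 14.5 TPM in line 1 libraries and 2.68, 3.30 and 3.18 TPM in WT libraries. LOC_Os11g31450 measured 4.66, 3.78 and 5.99 TPM in line 2 libraries, 4.33, 4.40 and 4.55 TPM in line 1 libraries and 0.569, 1.02 and 1.05 TPM in WT libraries. LOC_Os11g31470 measured 17.3, 17.8 and 19.3 TPM in line 2 libraries, 14.1, 15.9 and 15.8 TPM in line 1 libraries and 2.64, 3.58 and 2.37 TPM in WT libraries. None of the 6 genes of these runs passed in line 2 against line 1, with limma adjusted p-values from 0.16 to 0.77.

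In 15 of the 17 adjacent pairs of members (88.2%) the difference of line 2 minus line 1 had the same sign in both genes, against 56% of the 19333 adjacent pairs of tested genes. After median-ratio scaling 15 pairs had the same sign, against 53% of the tested pairs, and after quantile normalization 13 pairs, against 52.6%. In 4 pairs both genes were called in the same direction, in none in opposite directions, and in 13 at most 1 gene was called. Of the tested pairs 3.91% were both called in the same direction. Single members were called more often than single tested genes (53.5% against 22%), so this share is not a like baseline for pairs of members. LOC_Os02g15280 and LOC_Os10g25230, each in 1 of the 4 pairs, did not pass with median-ratio scaling (limma adjusted p = 0.095 and 0.054). Many of the signs belong to small differences that did not pass, and these shares are a description of few pairs. The middle gene of each run of 3 counts in more than 1 pair, and neighbours that may share reads are not separate measurements. The 4 pairs are described next and were named after their values were seen.

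LOC_Os02g03410 measured 201, 200.5 and 206 TPM in line 2 libraries, 64.2, 63.3 and 65.6 TPM in line 1 libraries and 20.4, 23.6 and 23.9 TPM in WT libraries. Its neighbour LOC_Os02g03420 measured 5.86, 5.83 and 7.53 TPM in line 2 libraries, 3.70, 3.90 and 3.10 TPM in line 1 libraries and 1.37, 0.884 and 1.17 TPM in WT libraries. The differences between the lines were 1.64 ± 0.06 for LOC_Os02g03410 and 0.69 ± 0.14 for LOC_Os02g03420 (SE), with limma adjusted p-values of 3e-10 and 0.0022. In both genes line 2 lay above line 1 without overlap, and line 1 lay above WT by the rule. The pair was named because both genes were called higher in line 2. Levels differed more than 10-fold between the genes.

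LOC_Os02g15290 measured 28.6, 24.7 and 28.3 TPM in line 2 libraries, 9.41, 9.90 and 9.99 TPM in line 1 libraries and 3, 1.49 and 2.22 TPM in WT libraries. Its neighbour LOC_Os02g15280 measured 15.4, 12.9 and 17.4 TPM in line 2 libraries, 12.9, 7.79 and 11.5 TPM in line 1 libraries and 2.52, 2.12 and 2.40 TPM in WT libraries. The difference between the lines was 1.39 ± 0.14 (SE; limma adjusted p = 5.2e-06) for LOC_Os02g15290. That of LOC_Os02g15280 was 0.48 ± 0.15 (SE; limma adjusted p = 0.037), and it did not pass in 7 of 17 alternative fits, 4 of which left out 1 library: line 1 replicate 2 (adjusted p = 0.14), line 1 replicate 3 (0.054), line 2 replicate 1 (0.099) or line 2 replicate 3 (0.15).

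On chromosome 9, LOC_Os09g25060 measured 134, 122 and 116 TPM in line 2 libraries, 242, 177 and 235 TPM in line 1 libraries and 37.4, 34.9 and 29.7 TPM in WT libraries. LOC_Os09g25070 measured 24.1, 21.5 and 23.9 TPM in line 2 libraries, 45.9, 37.4 and 41.4 TPM in line 1 libraries and 9.57, 7.10 and 9.10 TPM in WT libraries. The differences of line 2 minus line 1 were -0.80 ± 0.11 and -0.81 ± 0.11 (SE), with limma adjusted p-values of 9.3e-05 and 5.9e-05. The pair thus kept nearly the same step between the lines, with line 1 replicate 2 the lowest library of line 1 in both genes.

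On chromosome 10, LOC_Os10g25230 measured 32.2, 27.1 and 30.8 TPM in line 2 libraries, 22.5, 23.4 and 23.5 TPM in line 1 libraries and 3.23, 2.56 and 3.38 TPM in WT libraries. LOC_Os10g25290 measured 65.3, 67.7 and 71.4 TPM in line 2 libraries, 40.1, 29.1 and 35.3 TPM in line 1 libraries and 9.45, 8.52 and 10.5 TPM in WT libraries. The difference between the lines was 0.96 ± 0.10 (SE; limma adjusted p = 1.1e-05) for LOC_Os10g25290. That of LOC_Os10g25230 was 0.36 ± 0.10 (SE; limma adjusted p = 0.016), and it did not pass with median-ratio scaling (adjusted p = 0.054) or without line 1 replicate 1 (0.051), line 2 replicate 1 (0.082) or line 2 replicate 3 (0.06).

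All members share the 3 WT libraries, and the labels name no batch. Any other difference of the WT libraries as a set cannot be told apart from the mutant genotype in these values. The difference between the lines is computed without WT values, but the WT spread enters the variance behind the calls. The called members numbered 116 without WT replicate 1, 105 without WT replicate 2, 114 without WT replicate 3 and 119 with the mutant lines alone. Of all tested genes, 25.1%, 21.2%, 21.5% and 23.2% were called in these fits, in the same order. The contrast holds any difference between the lines, which carry the same genotype label.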

How the data were processed

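The authors deposited 1 table of TPM values with a column per library. The submitters' processing notes name fastp 0.20.1, HISAT2 2.1.10 and DESeq2 1.26.0 without a role or order. The quantification program, build, annotation and strandedness are not given in the sources used here. All 9 columns matched sample titles, and groups were taken from these titles.

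The members and lists were chosen with earlier results of these data known. Genes averaging 1 TPM or more were fitted in limma 3.58.1 (R 4.3.3) on log2(TPM + 1), with 1 mean per group over all 9 libraries, a variance trend on mean expression, two-sided tests and Benjamini-Hochberg adjustment over 19345 genes; changes of low genes are understated on this scale. The fit was tested on simulated data. Genes were named by margin, mutant level, called difference between the lines, nearness to the threshold and longest run of neighbours; exceptions are stated beside the values. Alternatives were another pseudocount (0.1), other minimum levels (none or a mean of 5 TPM), quantile normalization, median-ratio scaling, fewer groups, a constant prior variance, a replicate block, leaving out each library, and, for the rule, 1.5 or 3 times.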

Additional observations from a re-analysis of the deposited data

Results flagged for a closer look

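The contrast of line 2 with line 1 tests whether the difference from WT is the same in both lines. It was passed by 108 of 202 members (53.5%) at a limma adjusted p under 0.05, against 22% of the tested genes. The rule favours genes with little spread, so these shares do not compare like genes, and its part in the calls was not tested. Of the members named for their difference, LOC_Os01g06882 was higher in line 2 by 3.49 and LOC_Os05g37520 by 2.04 on the log2 scale. The differences of line 2 minus line 1 were -2.25 for LOC_Os11g44750 and -2.02 for LOC_Os07g23570. These 4 genes kept their sign and passed under all 17 alternative fits, the highest adjusted p being 0.00018, for LOC_Os01g06882.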

How the results depend on the processing

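With 1.5 times in the rule 415 genes were members and with 3 times 91; the other alternatives gave 152 to 215 members, and leaving out 1 library 206 to 246. With median-ratio scaling 200 of the 202 members remained members, and after quantile normalization 182. The number of members called between the lines was 96 to 111 under the alternatives that kept all 9 libraries, 119 in the fit of the mutant lines alone and 88 to 116 when 1 library was left out. With a minimum mean of 5 TPM only 152 members were tested, and 99 of them were called. The share of tested members called ran from 43.6% (without line 2 replicate 2) to 65.1% (minimum mean of 5 TPM). Of all tested genes, 15.8% (without line 2 replicate 2) to 25.3% (minimum mean of 5 TPM) were called across these fits. The median difference of the members between the lines was -0.048 after median-ratio scaling, more than the spread between libraries away from 0.02, and ran from -0.01 to 0.05 when 1 library was left out. With the replicate number as a block 111 members were called. The titles number the libraries 1 to 3 in each group, and deviations of same-numbered libraries of line 2 and line 1 correlated at 0.0116 to 0.0218 over 3 pairs, those of line 2 and WT at 0.0274 to 0.212 and those of line 1 and WT at 0.02 to 0.115. No pair of groups had all 3 values above 0.1, so the numbers were not taken to pair the libraries. Calls of the 29 named members stayed on the same side of the threshold in 474 of 490 cases. The unknown depth limits values near the lowest listed level most.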
